A study of Mus musculus with 2 samples.

Results

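Genes of the sodium pump beta subunit and FXYD families (Atp1b1, Atp1b2, Atp1b3, Atp1b4, Fxyd1 and Fxyd5) were compared between pools of fast and slow mouse muscle fibres. These 6 genes were selected by name, with the signals of both pools known, out of 23458 genes that had a probe on the array. Every value below comes from the contrast that was used to select them and is therefore a description without a test. Each gene was read from all probes whose RefSeq accession belongs to it, which gave 1 probe for Atp1b1, Fxyd1 and Fxyd5, 2 for Atp1b2 and Atp1b4, and 3 for Atp1b3.

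The sodium pump, or Na,K-ATPase, exports sodium and imports potassium at the expense of ATP and so restores the ion gradients that each muscle action potential runs down. A catalytic alpha subunit carries the ions, a glycosylated beta subunit brings alpha to the surface membrane and tunes its potassium affinity, and a small FXYD protein, named after a short conserved motif, adjusts its kinetics. In rodent limb muscle, oxidative and glycolytic muscles are known to differ in the beta subunit they carry.

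The study held 2 arrays, 1 per group. The fast pool was 4447 fibres without green fluorescence taken from the extensor digitorum longus (EDL), and the slow pool was 1659 fluorescent fibres, taken from the soleus per the source label and the treatment protocol, although the tissue label of that sample also names the EDL. Both pools came from 8 male mice aged 6 to 8 weeks that were heterozygous for GFP-Myh7 (G/+), an allele that makes fibres with slow myosin glow, so every fibre of both groups carried 1 tagged copy. Muscle of origin and fibre type differ together between the pools and cannot be told apart. The animals were pooled and there were no replicates, so the precision is limited by the number of arrays.

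Signals are processed intensities of the scanner software, in arbitrary linear units, given with the software error of each spot. A difference is slow minus fast on the log2 scale after the 75th percentile of each array was subtracted, and a gene with a difference of at least 2-fold is called higher in 1 pool. All 9 fast-fibre and all 9 slow-fibre markers were called in the direction of their label. Myh7, the slow myosin gene that carries the tag, had a signal of 1094 in the fast pool and 316863 in the slow one. Some markers kept a high signal in the other pool. Examples picked after the values were seen are the fast marker Myh2, at 36999 (fast) and 11054 (slow), and the slow marker Myl3, at 106998 (fast) and 273785 (slow). Of 14647 genes well above background on at least 1 array, 1570 (10.7%) were called higher in slow and 2100 (14.3%) higher in fast fibres, and scaling to spike-in controls turned this to 3178 and 1300. The median difference of the 12846 genes measured on both arrays was 0.05, and 0.48 under spike-in scaling.

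Of the 4 genes of the beta subunit family, 3 differed by more than 2-fold between the pools, in opposite directions, and neither FXYD gene did. Atp1b4 is counted here by sequence family, since its product is not a pump subunit in placental mammals. Atp1b1 was 4.75-fold and Atp1b4 3.26-fold higher in slow fibres, Atp1b2 was 41.9-fold higher in fast fibres, and Atp1b3, Fxyd1 and Fxyd5 differed by 1.03-fold, 1.10-fold and 1.02-fold. So 2 of the 6 genes were called higher in the slow pool and 1 in the fast pool, beside 10.7% and 14.3% of all genes, or 3 of 6 in either direction beside 25.1%, and nothing is read from that share because the genes were selected on this contrast. The count was 2 and 1 under all 14 alternative settings.

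The promoters of the 2 genes higher in slow fibres are shown first, with that of Fxyd1 beside them as a gene at nearly equal signal. RefSeq promoter windows, from 250 bases before to 50 bases after the gene start on build GRCm38.p6, were found for 5 of the 6 genes, all but Atp1b2. Capitals mark the motifs CCAAT and TATAAA on either strand. The windows are chr1:164458306-164458605 (minus strand) for Atp1b1, chrX:38315872-38316171 (plus strand) for Atp1b4 and chr7:31054804-31055103 (minus strand) for Fxyd1.
Atp1b1: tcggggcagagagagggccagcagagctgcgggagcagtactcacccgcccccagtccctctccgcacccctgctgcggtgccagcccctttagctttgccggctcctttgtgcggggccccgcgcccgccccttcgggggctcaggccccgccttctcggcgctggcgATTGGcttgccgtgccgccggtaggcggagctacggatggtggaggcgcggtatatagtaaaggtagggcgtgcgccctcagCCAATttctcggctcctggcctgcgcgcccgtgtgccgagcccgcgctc
Atp1b4: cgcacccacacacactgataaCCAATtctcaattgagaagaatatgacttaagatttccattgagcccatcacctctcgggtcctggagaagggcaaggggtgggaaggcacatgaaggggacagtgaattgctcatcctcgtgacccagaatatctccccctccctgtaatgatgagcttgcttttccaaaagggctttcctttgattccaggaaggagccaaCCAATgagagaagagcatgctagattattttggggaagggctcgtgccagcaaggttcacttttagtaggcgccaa
Fxyd1: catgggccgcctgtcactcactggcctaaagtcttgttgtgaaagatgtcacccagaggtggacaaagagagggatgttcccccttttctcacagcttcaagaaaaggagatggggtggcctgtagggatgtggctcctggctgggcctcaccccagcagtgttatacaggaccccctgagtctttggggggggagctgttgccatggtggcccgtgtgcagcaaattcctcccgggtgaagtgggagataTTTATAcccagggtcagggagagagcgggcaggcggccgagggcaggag

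Atp1b1 and Atp1b4 each held 2 matches to CCAAT. Of the 32851 promoters in the table, 37.4% held a match and 11.7% held at least 2. The windows of Fxyd1 and Fxyd5 and both windows of Atp1b3 held none. Outside the 6 genes, Fxyd6, called higher in slow fibres, and Fxyd3, above background in the fast pool only, held 1 match each. The windows of Atp1a4, above background in the fast pool only, and Fxyd4, above it in neither, held no match. Whether CCAAT matches go with the fibre pools was not tested. TATAAA, found in 13.6% of all promoters, was held by Fxyd1 alone among the 5 genes. The E-box CANNTG, bound by myogenic factors among others and present in 72.3% of promoters, occurred 2 times in Atp1b4, 1 time in Fxyd5 and in each Atp1b3 window, and not in Atp1b1 or Fxyd1. The GC box GGGCGG, present in 35.7%, occurred 2 times in Atp1b1 and 6 times in 1 of the Atp1b3 windows. CATTCC, the M-CAT element of Tead factors, and AAGGTCA, an element of estrogen-related receptors, occurred in none of the windows of these 5 genes, and in 14.7% and 4.72% of all promoters. The base composition differed as well, with 71.0% G and C in the Atp1b1 window and 49.0% in that of Atp1b4, against a median of 52.7% over all promoters. All motifs were searched on both strands, and a match describes the letters only.

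Atp1b1 encodes the most widely expressed beta subunit. Its probe (NM_009721) had a signal of 2856 ± 286 in the fast pool and 14562 ± 1456 in the slow pool. The slow signal was the higher one, and the software errors did not overlap. The difference was 2.25 ± 0.20 (software error, log2), and 266 of the 12846 genes measured on both arrays had a larger one in favour of slow fibres. Over 12 alternative settings the value ran from 2.06 to 2.68.

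Atp1b2 encodes a beta subunit first known as an adhesion molecule on glia. Its brighter probe (NM_013415) had a signal of 8831 ± 883 in the fast pool and 226 ± 22.7 in the slow pool. The fast signal was far above the slow one, which was still well above background. The difference was -5.39 ± 0.20, and 22 of the 12846 genes had a lower value. Its second probe for the same transcript had 241 ± 24.1 in the fast pool and 4.74 ± 2.22, not well above background, in the slow pool. That probe gives a bound of at least 29.3-fold in favour of the fast pool, taken against the lowest slow signal that was well above background. Both probes thus placed Atp1b2 higher in the fast pool, and the settings gave values from -5.50 to -4.96.

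Atp1b3 encodes a beta subunit found in many tissues. Its brightest probe (NM_007502) had a signal of 603 ± 60.3 in the fast pool and 668 ± 66.8 in the slow pool. The other 2 probes had signals of 129 and 435 in the fast pool, and of 135 and 487 in the slow pool. For each of the 3 probes the error ranges of the pools overlapped. The differences were 0.05, -0.04 and 0.06, each smaller than its software error of 0.20 to 0.21, so no difference was resolved. The direction changed with the setting, between -0.06 and 0.48.

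Atp1b4 belongs to the same family by sequence, but in placental mammals its product is a muscle protein of the inner nuclear membrane and not a pump subunit. Its brighter probe (NM_133690) had a signal of 237 ± 23.8 in the fast pool and 830 ± 83.0 in the slow pool. Its second probe had 139 ± 13.9 and 418 ± 41.9. Both probes were higher in the slow pool, without overlap of the errors. The differences were 1.71 ± 0.20 and 1.49 ± 0.20, the first of them exceeded by 472 of 12846 genes. The settings gave 1.40 to 2.14, with the lowest value under normexp background correction with quantile normalization. Snw1 and Smad7, whose products are a partner of the Atp1b4 protein and a signalling gene linked to it, were both within 2-fold, at 0.34 and -0.65.

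**Figure D1:**
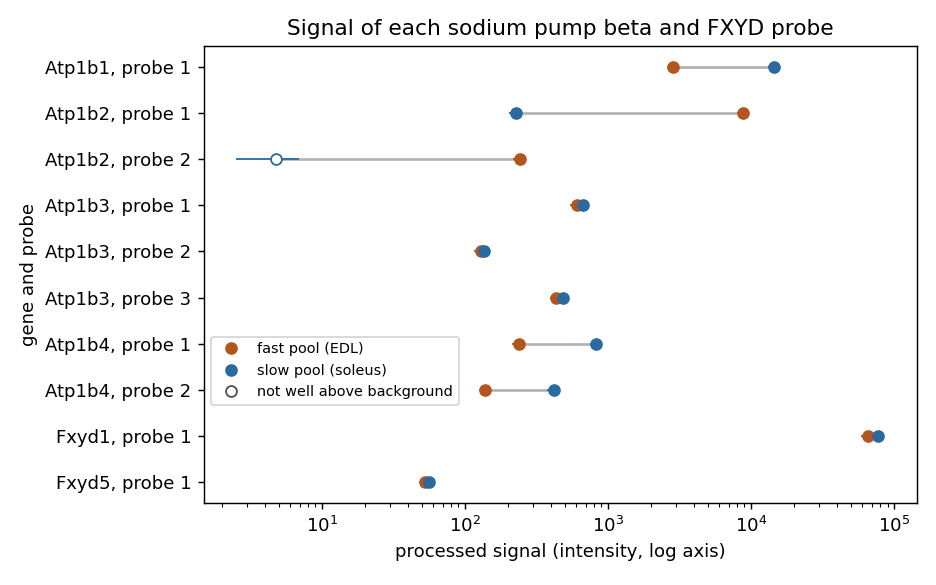
Processed signal (intensity, log axis) of each probe of the 6 genes in the fast (orange) and slow (blue) pool, with 1 array per pool and bars for the software error, where open circles were not well above background. The Atp1b2 probes are far higher in the fast pool and the Atp1b1 and Atp1b4 probes higher in the slow pool, whereas the points of Atp1b3, Fxyd1 and Fxyd5 nearly coincide.

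Fxyd1 encodes phospholemman, the main FXYD protein of heart and skeletal muscle, which restrains the pump until protein kinases phosphorylate it. Its probe (NM_052992) had a signal of 65552 ± 6555 in the fast pool and 77443 ± 7744 in the slow pool. Neither signal was saturated and the error ranges overlapped. The difference was 0.14 ± 0.20, and 5671 of 12846 genes had a larger one. It was -0.06 under loess and 0.57 under spike-in scaling.

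Fxyd5 encodes dysadherin, an FXYD protein known mainly from epithelia, where it also affects cell adhesion. Its probe (NM_008761) had a signal of 53.0 ± 5.58 in the fast pool and 55.8 ± 6.02 in the slow pool. The pools overlapped within the error. The difference was -0.03 ± 0.22, and the settings gave -0.13 to 0.40, so no direction was resolved.

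**Figure D2:**
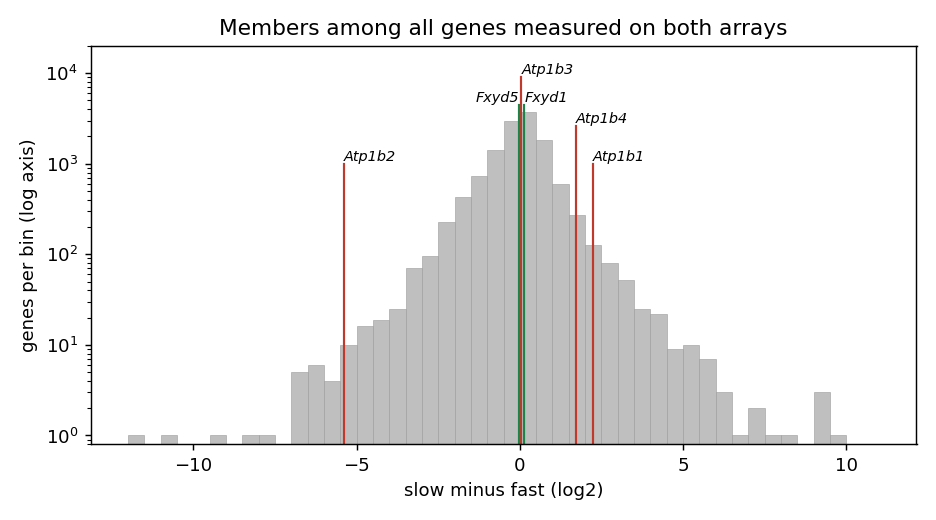
Distribution of the slow minus fast difference (log2) over the 12846 genes measured on both arrays, in bins of 0.5 with the number of genes on a log axis, and the 6 genes marked by lines (red for the beta subunit family, green for FXYD genes). Atp1b2 lies in the far fast tail, Atp1b1 and Atp1b4 on the slow shoulder and the other 3 near the middle.

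The change of one gene relative to another within the same array is the same under every scaling that multiplies an array by 1 factor. The ratio of the Atp1b1 to the Atp1b2 signal was 199-fold higher in the slow than in the fast pool, a log2 difference of 7.64 ± 0.29 between the genes. The ratio of Atp1b1 to Atp1b3 was 4.60-fold higher in the slow pool, at 2.20 ± 0.29. Atp1b1 and Atp1b4 differed from each other by 0.54 ± 0.29. These ratios show unequal change and set no level of one gene against that of another.

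Atp1a4, which encodes a catalytic alpha subunit known from sperm, had 95.7 ± 9.75 in the fast pool and was not well above background in the slow pool. Its bound was at least 11.7-fold in favour of the fast pool, while both settings with normexp background correction gave smaller log2 differences of -1.25 and -1.31.

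Of the 5 other FXYD genes, 4 were well above background on at least 1 array. Of these 4, 2 were called higher in slow fibres and none in fast fibres, beside 10.7% and 14.3% of all genes. Fxyd6, known from brain, had 6195 ± 619 in the fast pool and 13796 ± 1380 in the slow one, a 2.08-fold higher signal in slow fibres that fell to a log2 difference of 0.90 at the lowest scaling. Fxyd7, also known from brain, was well above background in the slow pool only, at 52.5 ± 5.60, and at least 6.79-fold higher there. Under normexp its log2 differences were 0.86 and 0.80, within 2-fold. Fxyd2, the gamma subunit of kidney, was within 2-fold at -0.71. Fxyd3 was well above background in the fast pool only, with a bound of 1.73-fold, and Fxyd4 was not well above background in either pool. By RefSeq gene order Fxyd5, Fxyd7 and Fxyd1 are consecutive protein-coding genes on chromosome 7. Within this run Fxyd7 alone was called, and its neighbours on both sides stood at -0.03 and 0.14.

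**Figure D3:**
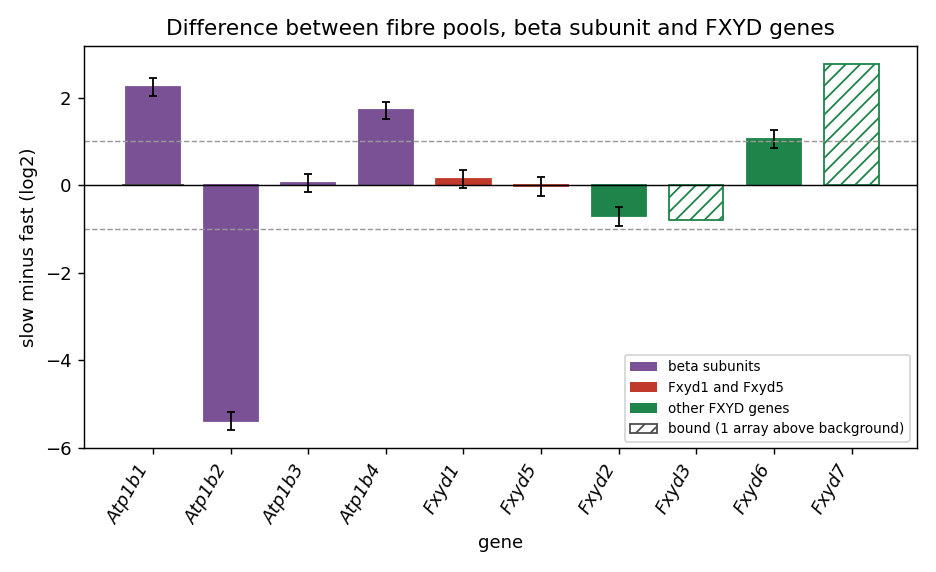
Slow minus fast difference (log2) of the beta and FXYD genes that were well above background, with bars for the software error, hatched bars for bounds where 1 array was above background, and dashed lines at 2-fold. Atp1b1, Atp1b4, Fxyd6 and Fxyd7 stand above the upper line, and Atp1b2 below the lower line.

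Regulators and partners of the pump were read from a list of 45 pathway genes that contains the other FXYD genes, of which 43 were well above background on at least 1 array. Of these, 6 were called higher in the slow pool and 8 in the fast pool, beside 10.7% and 14.3% of all genes. The same shares stand beside the counts for parts of this list, and nothing is read from any of these counts. The 37 pathway genes with a measurement on each array had a median of -0.05, against 0.05 for all genes. Among 13 genes for kinases, phosphatase parts, a ubiquitin ligase pair and a receptor that act on phospholemman or the pump, 1 was called higher in slow and 3 in fast fibres. Ppp1r1a, an inhibitor of protein phosphatase 1, had a signal of 208 in the fast pool and 921 in the slow one, 4.12-fold higher in slow fibres. Prkca, a protein kinase C that phosphorylates phospholemman, had 2452 and 396 and was 6.64-fold higher in fast fibres, with 3.19-fold by its second probe. Sgk1, a kinase that promotes sodium transport, was 2.99-fold higher in fast fibres. Nedd4l, a ubiquitin ligase that Sgk1 phosphorylates, was 2.14-fold higher there by its brighter probe and 3.69-fold by its second. It was within 2-fold, at -0.67, under spike-in scaling.

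Nedd4l and the genes Prkaca, Sptbn1, Scn4a and Slc8a3 below are named after their values were seen. Prkaca, the catalytic subunit of the protein kinase A that phosphorylates phospholemman, was at 0.41 and within 2-fold. Of the H,K-ATPase relatives of the pump none was called. Well above background in the fast pool only were 2 of 3, with fast signals of 15.2 and 10.2 beside 3.82 and 9.29 in the slow pool. These signals lie close to the background limit, and the second probe of the first gene was above it in neither pool. Of 5 membrane anchors, Cav1, a caveolin abundant in endothelium, was called higher in fast fibres at 2.57-fold, and 0 of 5 were called higher in slow fibres. Over the scalings its value came as near to 0 as -0.49. Sptbn1, a spectrin of the membrane skeleton, was within 2-fold at 0.51 by its brightest probe, but its other 3 probes gave 0.88, 1.01 and 2.57, so the probes disagreed. Among 13 genes of sodium entry and sodium-coupled transport, 2 were called higher in slow and 3 in fast fibres. Slc4a7, a sodium bicarbonate transporter, and Slc20a2, a sodium phosphate transporter, had 3.80-fold and 3.71-fold higher signals in the slow pool. Slc38a2, a sodium-coupled amino acid transporter, was 2.44-fold higher in fast fibres, and Slc8a1, a sodium calcium exchanger, at least 2.10-fold higher there. Both were within 2-fold under at least 1 scaling, with values nearest to 0 of -0.86 and -0.37. Scn4a, the sodium channel of the muscle action potential, was at -0.19. Slc8a3, a sodium calcium exchanger of muscle, was at 0.10 by its brightest probe and at -1.65 by its other one.

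Markers of other cell types moved with the pools, and in pooled fibres a smaller share of such cells and less RNA per cell cannot be told apart. Endothelial markers were called higher in the fast pool for 9 of 11 genes, with a summed level of 27.2 for the fast pool and 7.05 for the slow one (as multiples of the 75th percentile, over genes measured on both arrays), and Cldn5 showed the largest difference at -3.90. Fibroblast markers were called higher there for 9 of 11, with sums of 169 and 42.6 and Col1a1 at -2.18. Schwann cell markers, which bear on Atp1b2 as a gene known from glia, were called higher in fast fibres for 5 of 8 and in slow fibres for 2, with sums of 9.58 and 19.5 and values from -1.99 for Prx to 2.32 for Mbp, and a median of -1.30. The higher Schwann cell sum in the slow pool came mostly from Pmp22, at 1.97. Atp1b2 was at -5.39, with signals of 8831 in the fast pool and 226 in the slow pool by its brighter probe. Of 5 satellite cell markers, with sums of 7.58 for the fast pool and 2.73 for the slow one, Vcam1 and Cd34 were called higher in fast fibres, Pax7 was not called, and Myf5 and Calcr were not well above background. Immune markers were called higher in fast fibres for 3 of 10, with sums of 30.2 and 20.8, and Ptprc, Adgre1, Cd79a and Lyz2 were not well above background in either pool. Smooth muscle and pericyte markers were called higher in fast fibres for 4 of 9 and in slow fibres for 1, with a median of -0.92. Their sums of 779.9 and 706 came almost wholly from Acta2, at -0.13. Tendon markers were called higher in fast fibres for 3 of 6 and in slow fibres for 1, with a median of -1.19 over those measured on both arrays. Their sums of 19.2 and 24.9 ran the other way through Scx, at 2.05. Erythrocyte markers were called higher in fast fibres for 5 of 7, with sums of 92.9 and 34.7. Adipocyte markers were called higher there for 1 of 4, with sums of 18.1 and 7.86, and Adipoq and Plin1 were not well above background. The part of such cells in the values of Atp1b2, Atp1b3, Fxyd5 and Cav1 was not tested.

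**Figure D4:**
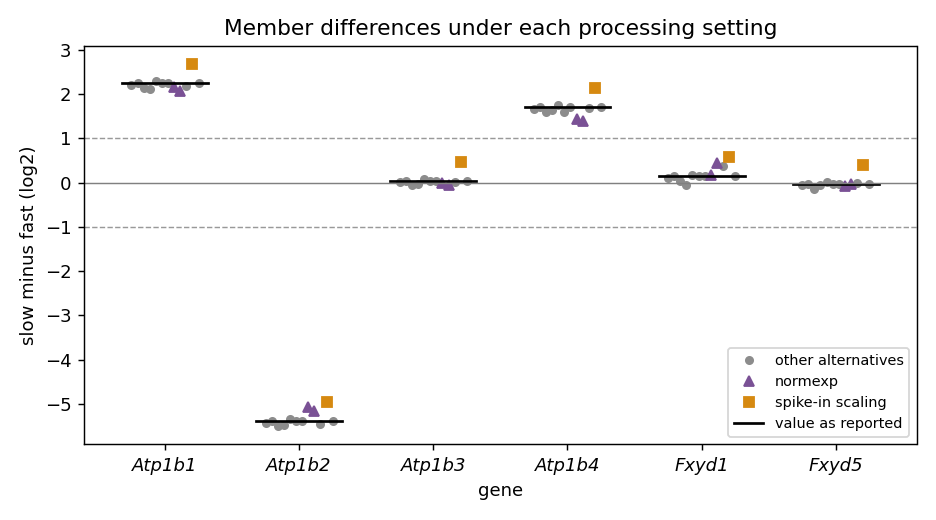
Slow minus fast difference (log2) of the 6 genes as reported (black line) and under 12 alternative settings of scaling, background correction, source of the values, filter and probe rule (grey circles, purple triangles for normexp, orange squares for spike-in scaling), with dashed lines at 2-fold. Atp1b1 and Atp1b4 stay above the upper line and Atp1b2 below the lower line in each setting, and the other 3 stay between the lines.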

How the data were processed

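RNA of pooled single fibres was labelled with Cy3 from 0.1 µg of total RNA per pool and hybridised to a 1-colour Agilent array, per the labels' protocols. The deposited scanner files hold spot intensities that Agilent Feature Extraction 12.0.3.1 background-subtracted and detrended within each array, per the file headers (version per the submitters' processing notes), with software errors and 0 or 1 flags, and not normalized between arrays. The authors' deposited value table holds the same intensities times 2.83 (fast) and 2.45 (slow), with column medians of 30.1 and 27.1, no log and no centring. What the factors scale to is unknown. Both arrays lay on 1 slide.

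Control spots and 159 spots with outlier flags were left out, and no spot was saturated. Log2 signals were scaled to the 75th percentile of each array. Of 56596 probes, 33763 (59.7%) were matched by RefSeq accession to 23458 genes of the GRCm38.p6 table, used for names and gene order only, since the array design refers to mm9. A gene's value is its brightest probe well above background on at least 1 array. A gene above background on 1 array has a bound against the lowest signal well above background on the other. With 1 array per group no test was possible, and a size rule of 2-fold was used. The median SD of a difference between spots was 0.05 over 291 repeated probes, and the median software error 0.20. Neither covers variation between animals. Functions were tested on simulated data. Normexp (offset 50) and quantile normalization used limma 3.58.1 in R 4.3.3, and loess (span 0.3) statsmodels 0.14.6. The members and all lists were chosen with earlier results of these data known. Named genes are all members, the alpha and other FXYD genes, up to 2 per direction past 2-fold of each other pathway group, and up to 2 per marker list. Some genes that the list counts include are not reported here.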

Additional observations from a re-analysis of the deposited data

How the results depend on the processing

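The calls of the 6 genes were the same under all 14 alternatives. Of their 72 values under the 12 alternatives other than the size rules, 12 moved by more than the software error. Dropping the dim-probe filter, requiring both arrays above background and using NM accessions only left all 6 genes at their reported values. The median over probes changed Atp1b4 alone, so part of the 72 values only repeat the reported ones. The signs of Atp1b3, Fxyd1 and Fxyd5, which were not called, changed between alternatives. Scaling to the spike-in controls added 0.43 to every difference, giving 2.68 for Atp1b1, -4.96 for Atp1b2, 0.48 for Atp1b3, 2.14 for Atp1b4, 0.57 for Fxyd1 and 0.40 for Fxyd5. Normexp with quantile normalization gave -5.15 for Atp1b2, 1.40 for Atp1b4 and 0.45 for Fxyd1 (0.39 with quantile normalization alone), and normexp with the 75th percentile -5.06 for Atp1b2 and 1.43 for Atp1b4. Pathway genes higher in fast fibres numbered 3 instead of 8 under spike-in scaling, 14 with a 1.5-fold and 2 with a 3-fold size rule. Of all genes, 3178 were higher in slow and 1300 in fast fibres under spike-in scaling, 771 and 1005 after normexp and quantile normalization, 782 and 1002 after normexp scaled to the 75th percentile, 3095 and 3394 at 1.5-fold, and 775 and 1070 at 3-fold. Without a filter on dim probes 2494 were higher in slow and 3104 in fast fibres. The cause was not tested beyond what each setting adds or removes. Signals near background, as of Atp1a4, Fxyd3 and Fxyd7, allow bounds only. No paired analysis was possible because each group has 1 array.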

Other observations

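Other P-type ATPases, the enzyme family of the pump, were read by symbol after the values above were seen, leaving out the calcium pumps of the sarcoplasmic reticulum. Of 27 such genes 19 were well above background on at least 1 array, of which 6 were called higher in the fast pool and 1 in the slow pool by the 2-fold rule, beside 14.3% and 10.7% of all genes. The 2 with the largest differences encode lipid flippases. Atp8a2 had a signal of 305 in the fast pool and 12.3 in the slow one and was 26.7-fold higher in fast fibres, with a log2 difference of -2.30 at the scaling nearest to 0. Atp8a1 had 1496 and 95.7 and was 16.8-fold higher, with -3.41 nearest to 0 over the scalings and -3.26 by its other probe. Atp10a was 6.63-fold and Atp8b4 at least 5.67-fold higher in the fast pool, with values nearest to 0 over the scalings of -1.26 and -0.63. Atp2b3, a calcium pump of the surface membrane, had 210 and 25.2 and was 8.95-fold higher in fast fibres (-2.23 by its other probe and -1.68 nearest to 0 over the scalings), against a difference of -0.10 for its ubiquitous relative Atp2b1. Atp9a was the gene higher in slow fibres, with 4994 in the fast pool and 11434 in the slow one, at 2.13-fold and 0.93 at the lowest scaling.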
